A study of Mus musculus with 27 samples.

Results

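Livers of mice fed a high-fat diet were compared with livers of mice fed an essential fatty acid (EFA)-deficient diet, to set a liver supplied mainly with fat beside a liver supplied mainly with sugar. All groups were male C57BL/6 mice that were bought at 10 weeks of age, ate their diet for 3 weeks without restriction and were killed unfasted in the morning. The high-fat diet was rich in fat, mostly saturated and monounsaturated with some polyunsaturated fat, and held a moderate amount of sucrose. The EFA-deficient diet was mostly sucrose, and its small amount of fat was all saturated, with no n-6 and no n-3 fatty acids. The high-fat diet was also richer in protein, polysaccharide, cholesterol and energy per gram. Fat, sucrose, polysaccharide, polyunsaturated fatty acids, cholesterol, protein and energy therefore changed together, and their parts in any difference cannot be told apart. Mice on AIN-93, a purified control diet rich in starch, are given beside both diets for some genes, and both differences from AIN-93 share the same 3 control arrays.

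RNA from 3 livers per diet was hybridized to Affymetrix mouse expression arrays, 1 array per mouse, within a series of 27 arrays on 9 diets. The members are the genes with a probe whose mean log2 intensity exceeded log2(100), called the detection level, in the high-fat or the EFA-deficient group. Of 18194 genes whose probes list 1 symbol, 6057 met this rule. The mean was above the detection level in both groups for 5607 genes, in the high-fat group only for 198 and in the EFA-deficient group only for 251. The last 2 sets could enter only because a group was high, so counts for genes above the level in both groups are given for each list where they differ. Values are log2 intensities of replicates 1, 2 and 3 in that order, and differences are high fat minus EFA deficient with the standard error (SE) of the fit. A gene rose or fell on the high-fat diet where limma over all 27 arrays gave an adjusted p below 0.05. Where every probe of a gene lay below the detection level on all 3 arrays of a group, only a minimum fold, taken against that level, is printed, and the p is that of the fitted difference. Where only the group mean lay below it, the size of the fold is less certain.

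The liver can make fat or burn it. After a sugar-rich meal, insulin and the transcription factors SREBP-1c (Srebf1) and ChREBP (Mlxipl) raise glycolytic and lipogenic enzymes, which turn sugar carbon into palmitate and then into monounsaturated fatty acids. Polyunsaturated fatty acids lower many of the same transcripts. Fatty acids that reach the liver from the diet or from adipose tissue bind PPARα, a nuclear receptor that raises enzymes of mitochondrial, peroxisomal and microsomal fatty acid oxidation.

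Arrays of each diet resembled each other more than those of the other diet. The Euclidean distance over the 6057 genes was 21.8 to 23.1 among high-fat arrays, 26.0 to 32.7 among EFA-deficient arrays and 38.2 to 50.1 between them. These genes include those that could enter only because a group was high, which can widen the distance between diets. Medians of the tested genes were 8.27 to 8.37 on the high-fat and 8.35 to 8.37 on the EFA-deficient arrays. All 13 hepatocyte defining genes on the array were tested, and albumin (Alb) had 16.27, 16.28 and 16.28 in high-fat livers, against 16.25, 16.22 and 16.24 in EFA-deficient livers. Among them Tdo2 (log2 difference 0.81 ± 0.20 SE, adjusted p = 0.0061) and Cyp2e1 (log2 difference 0.37 ± 0.08 SE, adjusted p = 0.0037) rose, and the other 11 did not pass. Tdo2 missed the threshold without EFA-deficient replicate 2 (0.59, adjusted p = 0.053) and in a fit of the 6 arrays alone (adjusted p = 0.06). The summed intensity of 16 Kupffer cell and macrophage markers was 6340 to 11500 in high-fat livers and 6410 to 12200 in EFA-deficient livers, and limma called none of the 16, where 1 had an unadjusted p below 0.05. It called none of 8 stellate cell markers, where 1 had an unadjusted p below 0.05. Sums of 13 sinusoidal endothelial markers were 2990 to 3770 and those of 8 stellate cell markers 5370 to 6960 in high-fat livers, against 2830 to 3520 and 5680 to 6250 in EFA-deficient livers. The endothelial gene Stab2 rose (log2 difference 0.58 ± 0.17 SE, adjusted p = 0.016), but not without EFA-deficient replicate 3 (0.48, adjusted p = 0.062), high-fat replicate 1 (0.49, adjusted p = 0.076) or high-fat replicate 3 (0.53, adjusted p = 0.055), nor with no filter (adjusted p = 0.053) or in a fit of the 6 arrays alone (adjusted p = 0.05). None of the 15 T, NK and B cell markers on the array reached the detection level in either group. In whole liver RNA, fewer cells of a type and less RNA per cell cannot be told apart.

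On the high-fat diet 824 genes rose and 655 fell, so that 24.4% of the genes tested passed, 13.6% upward and 10.8% downward. Of the 5607 genes above the detection level in both groups, 740 rose and 537 fell. The change was over 2-fold for 205 of the 1479. Without EFA-deficient replicate 2 the count of genes that passed was 860, and without high-fat replicate 2 it was 907. High-fat and EFA-deficient arrays did not overlap for 41.7% of all genes tested. Among genes above the detection level in both groups, Fabp5 and Igfbp1 fell furthest and Cyp4a14 rose furthest.

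**Figure D1:**
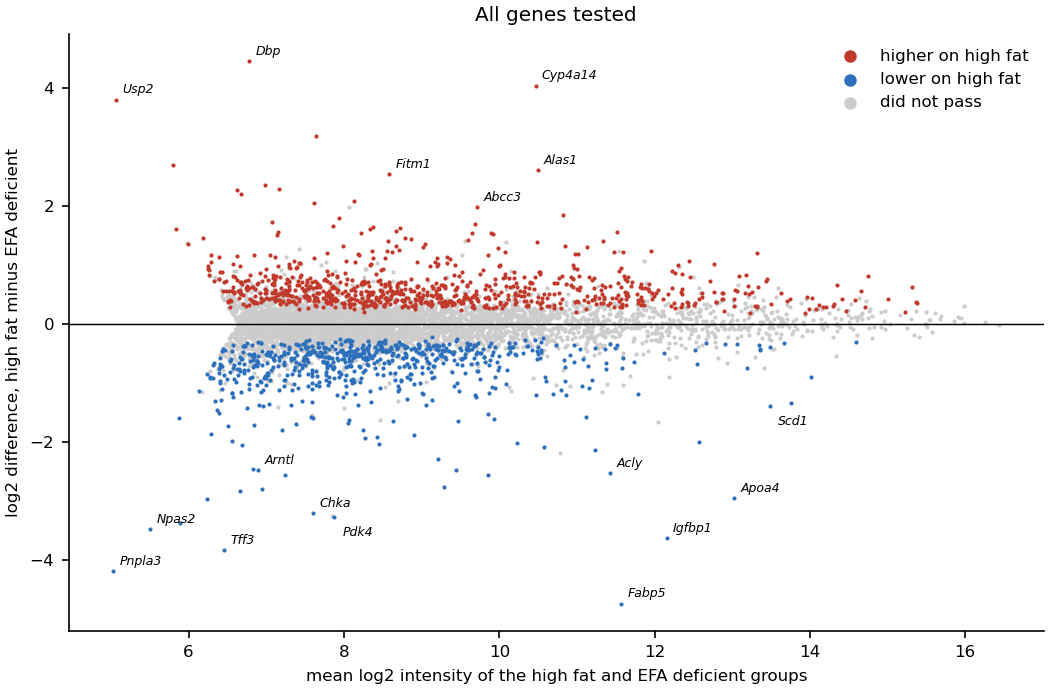
Log2 difference of high fat minus EFA deficient (y axis) against the mean log2 intensity of both groups (x axis) for each of the 6057 genes tested, with red points for the 824 that rose on high fat, blue for the 655 that fell and grey for the rest. The median of all differences lies at 0, and labelled genes of lipid metabolism and the clock lie at the edges of the cloud. Genes below the detection level throughout 1 group, such as Pnpla3, Tff3, Npas2 and Usp2, are drawn at their fitted difference, whose size is not measured.

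Gene lists differed in how many members passed. They were written from textbook knowledge with earlier results of these data known, so the shares describe the lists and are no test of them. Fatty acid oxidation lists stood at the upward end, with 76.2% of tested peroxisomal and 58.6% of tested mitochondrial members higher on the high-fat diet, beside 13.6% of all genes. De novo lipogenesis stood at the downward end, with 63.2% of its members lower, beside 10.8% of all genes. In limma none of the 24 interferon and MHC class I genes and none of the 16 genes higher in male liver rose or fell, and 4 and 2 of them had an unadjusted p below 0.05. Lists share members where a gene has several roles.

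**Figure D2:**
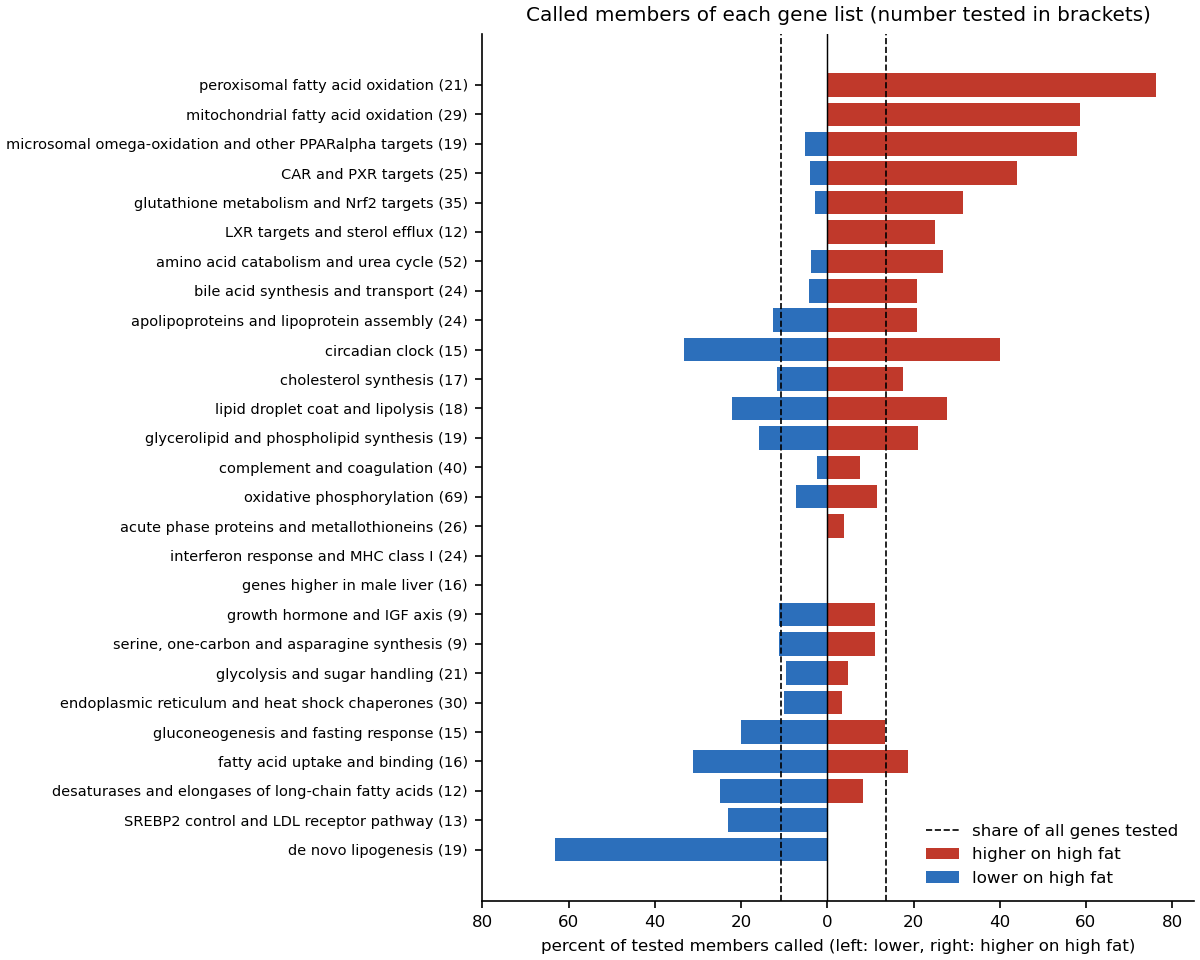
Percent of the tested members of each pathway list that fell (blue, left) or rose (red, right) on the high-fat diet against the EFA-deficient diet, with the number tested in brackets. Dashed lines mark the shares of all genes tested, 10.8% lower and 13.6% higher, and the 3 oxidation lists and de novo lipogenesis lie farthest from them.

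Most genes that build fatty acids from sugar were lower in high-fat livers. Of 19 tested genes of de novo lipogenesis, 12 fell and 0 rose, with a median difference of -1.57, beside a median of 0.00 over all genes. Among the 18 above the detection level in both groups, 11 fell. Acly, which makes cytosolic acetyl-CoA from citrate, had 10.39, 9.998 and 10.10 in high-fat livers, against 12.42, 13.60 and 12.05 in EFA-deficient livers (log2 difference -2.53 ± 0.42 SE, adjusted p = 0.00046), so it was 5.76-fold lower and the groups lay far apart. Acss2, which makes acetyl-CoA from acetate, had 9.15, 8.90 and 9.62 in high-fat livers, against 11.37, 11.98 and 10.35 in EFA-deficient livers (log2 difference -2.01 ± 0.35 SE, adjusted p = 0.00062). Acaca, the acetyl-CoA carboxylase that commits carbon to palmitate, had 8.06, 8.01 and 8.16 in high-fat livers, against 10.64, 11.78 and 8.66 in EFA-deficient livers (log2 difference -2.28 ± 0.54 SE, adjusted p = 0.0048). Here EFA-deficient replicate 3 lay close to the high-fat arrays, which lay close to each other. Acacb, the carboxylase at the mitochondrial surface whose malonyl-CoA restrains Cpt1a, had 8.19, 7.39 and 8.15 in high-fat livers, against 10.43, 11.53 and 10.04 in EFA-deficient livers and was 6.75-fold lower (log2 difference -2.76 ± 0.43 SE, adjusted p = 0.00027).

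Elovl6, which extends palmitate to stearate, had 8.65, 8.57 and 8.51 in high-fat livers, against 11.54, 12.65 and 9.23 in EFA-deficient livers (log2 difference -2.56 ± 0.66 SE, adjusted p = 0.0079). Scd1, the desaturase that makes oleate, had 12.70, 12.61 and 13.05 in high-fat livers, against 14.27, 14.54 and 13.73 in EFA-deficient livers (log2 difference -1.39 ± 0.29 SE, adjusted p = 0.0023), and its 2 probes gave differences of -2.48 and -0.30. With the probe of the higher mean alone, Scd1 did not pass. Me1, which supplies NADPH, had 10.36, 9.86 and 10.28 in high-fat livers, against 12.96, 13.57 and 10.39 in EFA-deficient livers (log2 difference -2.14 ± 0.59 SE, adjusted p = 0.012), and Pgd of the pentose phosphate pathway had 9.28, 9.08 and 9.02 in high-fat livers, against 10.97, 11.72 and 9.52 in EFA-deficient livers (log2 difference -1.61 ± 0.45 SE, adjusted p = 0.013). Pnpla3, a lipid droplet acyl hydrolase induced by sugar feeding, had 2.93, 2.93 and 2.94 in high-fat livers, against 7.72, 8.56 and 5.08 in EFA-deficient livers, and was at least 1.39-fold lower (adjusted p = 0.00054). Its high-fat values lay near the bottom of the scale, and EFA-deficient replicate 3 was itself below the detection level of 6.64. The acyl-CoA synthetase Acsl3 fell as well (log2 difference -1.57 ± 0.34 SE, adjusted p = 0.0029).

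Of the 12 lipogenic genes that fell, EFA-deficient replicate 2 was the highest array of its group for 12 and EFA-deficient replicate 3 the lowest for 11. Leaving out replicate 3 gave a difference of -3.13 for Acaca, -3.52 for Elovl6, -3.10 for Me1 and -2.22 for Pgd, and a fall of at least 2.82-fold for Pnpla3 (adjusted p = 4.2e-05). Without EFA-deficient replicate 2 the differences were -1.57 for Acaca, -1.81 for Elovl6 (adjusted p = 0.068), -1.51 for Me1 (adjusted p = 0.094) and -1.12 for Pgd (adjusted p = 0.096). For Pnpla3 the EFA-deficient mean was then itself not above the detection level, so no fold is given (adjusted p = 0.0056). Me1 also missed the threshold without EFA-deficient replicate 1, at -1.81 (adjusted p = 0.062), or without high-fat replicate 2, at -1.99 (adjusted p = 0.05). In a fit of the 6 arrays alone Acaca (adjusted p = 0.058), Elovl6 (adjusted p = 0.056), Me1 (adjusted p = 0.082) and Pgd (adjusted p = 0.061) missed the threshold, and with no filter so did Elovl6 (-1.81, adjusted p = 0.14), Me1 (adjusted p = 0.054) and Pgd (adjusted p = 0.054). With any 1 of the 6 arrays left out, between 8 and 13 lipogenic genes fell.

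The transcription factor Mlxipl fell, with 9.63, 9.02 and 9.49 in high-fat livers, against 10.46, 10.67 and 10.21 in EFA-deficient livers (log2 difference -1.07 ± 0.23 SE, adjusted p = 0.0031), whereas Srebf1 had 11.25, 11.55 and 11.55 in high-fat livers, against 11.92, 11.21 and 11.48 in EFA-deficient livers and overlapped between diets (adjusted p = 0.87). Fasn, the fatty acid synthase, had 11.26, 11.14 and 11.24 in high-fat livers, against 13.18, 13.59 and 11.85 in EFA-deficient livers. Its arrays did not overlap, but the difference of -1.66 ± 0.68 did not pass (adjusted p = 0.079), and it did without EFA-deficient replicate 3 (-2.17, adjusted p = 0.037), with array weights (adjusted p = 0.016) and in the fit of the 6 arrays (adjusted p = 0.033). Thrsp, a small lipogenic regulator, had 12.95, 13.31 and 12.83 in high-fat livers, against 14.001, 14.70 and 12.64 in EFA-deficient livers (adjusted p = 0.35). The citrate carrier Slc25a1, Taldo1 and Mid1ip1 had differences of 0.26, 0.32 and 0.54 that did not pass, so the list did not move as a whole.

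**Figure D3:**
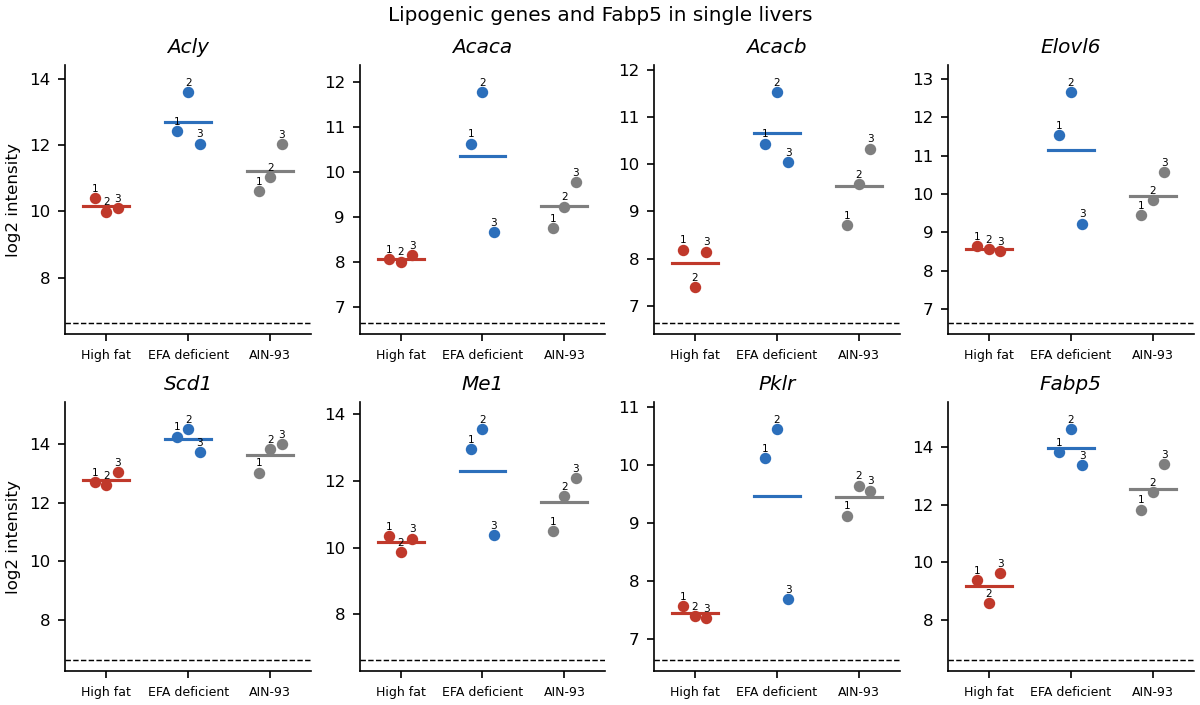
Log2 intensity of 8 genes in each liver on the high-fat (red), EFA-deficient (blue) and AIN-93 (grey) diets, with points numbered by replicate, bars at group means and a dashed line at the detection level. In all 8 panels the high-fat points lie below the EFA-deficient points, and EFA-deficient replicate 3 is the lowest of its group.

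Against AIN-93, where 9.96% of genes passed for the high-fat and 2.99% for the EFA-deficient diet, the lipogenic genes lay on both sides of the control. For Acacb the difference from AIN-93 was -1.63 for high fat (adjusted p = 0.019) and 1.13 for EFA deficient (adjusted p = 0.14), for Acss2 -0.67 for high fat (adjusted p = 0.24) and 1.34 for EFA deficient (adjusted p = 0.041), and for Acly -1.06 for high fat (adjusted p = 0.11) and 1.46 for EFA deficient (adjusted p = 0.057). Pnpla3 lay below the detection level on all AIN-93 arrays too, at 2.94, 3.12 and 6.11. Against AIN-93 its adjusted p was 0.34 for high fat and 0.025 for EFA deficient, where it was higher. The AIN-93 mean lay between the means of both diets for Acacb, Acss2 and Acly, while single AIN-93 livers were spread, as for Acly with 10.61, 11.04 and 12.02.

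Of 21 tested genes of glycolysis and sugar handling, 2 fell and 1 rose, so 9.52% fell, beside 10.8% of all genes. Pklr, the liver pyruvate kinase that feeds lipogenesis, had 7.56, 7.39 and 7.36 in high-fat livers, against 10.11, 10.62 and 7.68 in EFA-deficient livers (log2 difference -2.03 ± 0.47 SE, adjusted p = 0.004), so replicate 3 of the EFA-deficient group again lay near the high-fat arrays. Without that array the Pklr difference was -2.93 and 7 genes of the list fell. In the fit of the 6 arrays alone Pklr missed the threshold (adjusted p = 0.076). Khk, the fructose kinase, had 12.29, 12.14 and 11.88 in high-fat livers, against 12.55, 12.997 and 11.75 in EFA-deficient livers (adjusted p = 0.32), and passed only without EFA-deficient replicate 3 (-0.67, adjusted p = 0.026).

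Glycerolipid and phospholipid synthesis held 4 genes that rose (21.1%) and 3 that fell (15.8%) among 19 tested, beside 13.6% and 10.8% of all genes. With EFA-deficient replicate 2 or high-fat replicate 2 left out, 2 rose. Of the 18 above the detection level in both groups, 4 rose and 2 fell. Gpam, the mitochondrial acyltransferase that starts triglyceride synthesis, had 13.21, 12.95 and 13.11 in high-fat livers, against 14.47, 14.86 and 13.95 in EFA-deficient livers (log2 difference -1.33 ± 0.27 SE, adjusted p = 0.0015). Chka, the choline kinase of phosphatidylcholine synthesis, had 6.14, 5.38 and 6.50 in high-fat livers, against 8.61, 9.15 and 9.85 in EFA-deficient livers (log2 difference -3.20 ± 0.51 SE, adjusted p = 0.00034). Gpam and Chka fell, and neither group pair overlapped. The high-fat mean of Chka lay below the detection level, so the size of its difference is less certain. Phosphatidylserine synthase Ptdss1 rose (log2 difference 0.66 ± 0.11 SE, adjusted p = 0.00049), as did Gnpat of ether lipid synthesis (log2 difference 0.54 ± 0.09 SE, adjusted p = 0.00062). Of 12 desaturases and elongases, 3 fell (25%) and 1 rose (8.33%). Elovl2, which extends long polyunsaturated fatty acids, had 13.45, 13.60 and 13.65 in high-fat livers, against 14.26, 14.31 and 14.83 in EFA-deficient livers (log2 difference -0.90 ± 0.15 SE, adjusted p = 0.00046).

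Many genes that oxidize fatty acids were higher in high-fat livers. Of 29 tested genes of mitochondrial fatty acid oxidation, 17 rose and 0 fell, with a median difference of 0.50. Of the 26 above the detection level in both groups, 14 rose. The steps that bring fatty acids into mitochondria were among them. The carnitine transporter Slc22a5 had 7.89, 7.86 and 8.06 in high-fat livers, against 7.15, 5.91 and 6.05 in EFA-deficient livers (log2 difference 1.56 ± 0.28 SE, adjusted p = 0.00076), and EFA-deficient replicate 1 was the closest of its group to the high-fat level. The EFA-deficient mean of Slc22a5 lay below the detection level, so the size of its difference is less certain. The carnitine-acylcarnitine carrier Slc25a20 had 11.55, 11.62 and 11.56 in high-fat livers, against 10.84, 10.14 and 10.19 in EFA-deficient livers (log2 difference 1.19 ± 0.17 SE, adjusted p = 0.00017), and Cpt2, which releases acyl-CoA inside, had 11.04, 11 and 10.86 in high-fat livers, against 10.28, 9.66 and 10.33 in EFA-deficient livers (log2 difference 0.87 ± 0.17 SE, adjusted p = 0.001). Cpt1a, the entry enzyme, had 10.92, 11.33 and 11.48 in high-fat livers, against 11.06, 9.89 and 10.83 in EFA-deficient livers and did not pass (log2 difference 0.65 ± 0.25 SE, adjusted p = 0.064). It passed without EFA-deficient replicate 1 (0.89, adjusted p = 0.026), without high-fat replicate 1 (0.81, adjusted p = 0.049) or with array weights (0.76, adjusted p = 0.019).

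Within the mitochondrial spiral, changes were smaller and more even. The medium-chain dehydrogenase Acadm had 12.73, 12.52 and 12.71 in high-fat livers, against 12.21, 11.77 and 12.19 in EFA-deficient livers, a 1.51-fold difference (log2 difference 0.60 ± 0.14 SE, adjusted p = 0.005). The thiolase Acaa2 was 1.49-fold higher (adjusted p = 0.0062), the short-chain dehydrogenase Acads 1.42-fold (adjusted p = 0.0049) and Etfb, which takes up the electrons, 1.42-fold (adjusted p = 0.0022). Among enzymes that prepare double bonds for oxidation, Eci1 rose by a difference of 0.64 (adjusted p = 0.0021) and Decr1 by 0.79 ± 0.17 (adjusted p = 0.0022). Eci2, which is also counted in the peroxisomal list, had 12.16, 12.17 and 12.28 in high-fat livers, against 11.67, 10.62 and 10.67 in EFA-deficient livers (log2 difference 1.22 ± 0.22 SE, adjusted p = 0.00084). The trifunctional protein genes Hadha and Hadhb had differences of 0.29 and 0.28 that did not pass. Hadha passed with array weights (adjusted p = 0.036), with centred arrays (adjusted p = 0.047) and after a further quantile normalization (adjusted p = 0.048). With 1 array left out, between 13 and 17 genes of the list rose.

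Peroxisomes shorten very long and branched fatty acids. Of 21 tested peroxisomal genes, all above the detection level in both groups, 16 rose and 0 fell, with a median difference of 0.63. Decr2, the peroxisomal dienoyl-CoA reductase for polyunsaturated chains, had 10.73, 10.96 and 10.19 in high-fat livers, against 9.67, 9.16 and 9.19 in EFA-deficient livers and was 2.44-fold higher (log2 difference 1.29 ± 0.19 SE, adjusted p = 0.00022). Pex11a, which drives division of peroxisomes, had 9.93, 9.85 and 10 in high-fat livers, against 9.62, 8.79 and 8.36 in EFA-deficient livers (log2 difference 1.003 ± 0.25 SE, adjusted p = 0.0071). Ech1, a dienoyl-CoA isomerase, had 12.90, 12.83 and 12.83 in high-fat livers, against 12.15, 11.95 and 12.08 in EFA-deficient livers, so that both groups were tight and lay apart (log2 difference 0.79 ± 0.15 SE, adjusted p = 0.001). Branched-chain oxidase Acox2 (0.78 ± 0.15), thioesterase Acot8 (0.75 ± 0.13), racemase Amacr (0.65 ± 0.12) and thiolase Acaa1b (0.63 ± 0.15) rose as well. In the fit of the 6 arrays alone Pex11a (adjusted p = 0.053) and Acaa1b (adjusted p = 0.055) missed the threshold. The other members, Abcd3, Phyh, Cat, Scp2 and Crat, had differences between -0.19 and 0.58 and did not pass. Between 13 and 16 genes of the list rose with 1 array left out.

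**Figure D4:**
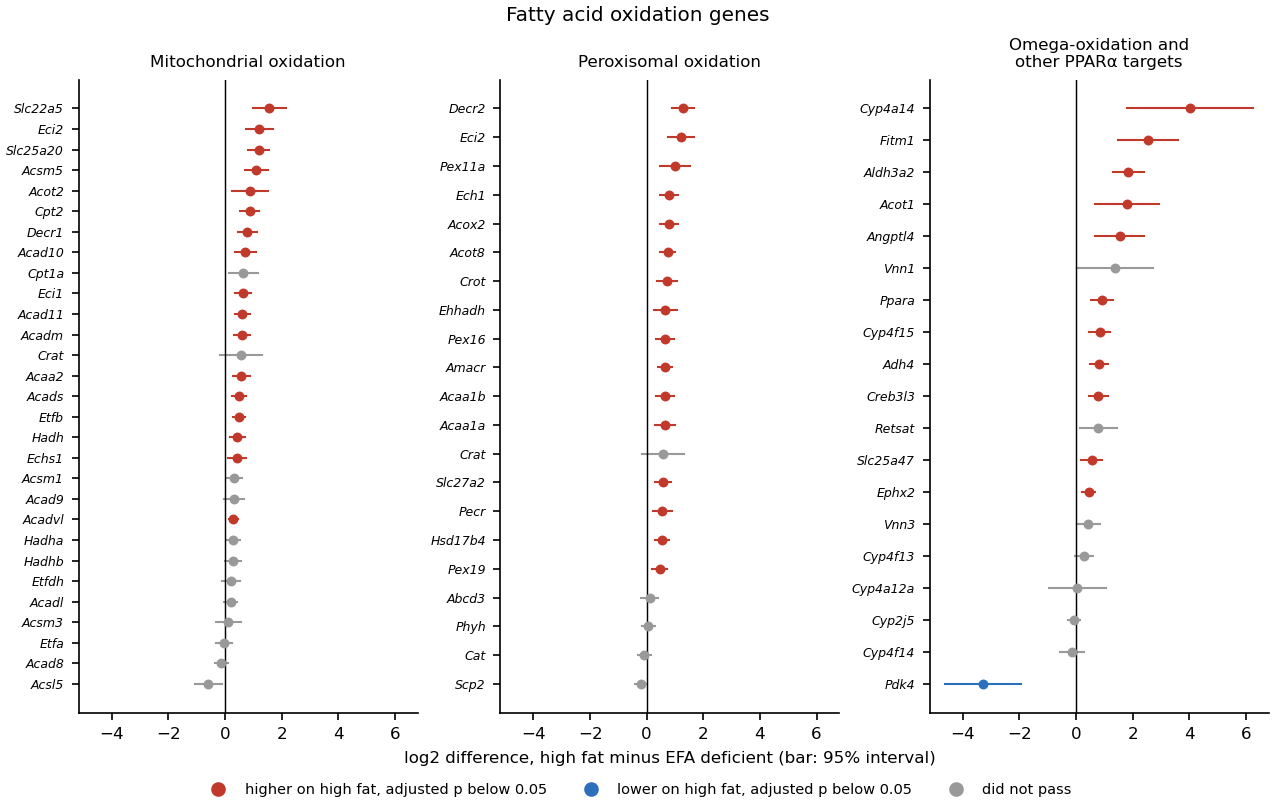
Log2 difference of high fat minus EFA deficient with its 95% interval for each tested gene of mitochondrial oxidation (left), peroxisomal oxidation (middle) and omega-oxidation with other PPARα targets (right). Red points rose and blue points fell on high fat, grey points did not pass, and Pdk4 alone lies on the lower side in the right panel among genes that passed.

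Microsomal omega-oxidation starts at the far end of the fatty acid chain. The list, which also holds other PPARα targets, had 19 tested genes. Of these, 11 rose (57.9%) and 1 fell (5.26%), beside 13.6% and 10.8% of all genes. Of the 18 above the detection level in both groups, 11 rose and 0 fell. Cyp4a14, an omega-hydroxylase used as a PPARα marker in mice, had 12.46, 12.38 and 12.62 in high-fat livers, against 9.39, 7.29 and 8.67 in EFA-deficient livers, and was 16.4-fold higher (log2 difference 4.04 ± 1.07 SE, adjusted p = 0.0099). The high-fat arrays lay close to each other and the EFA-deficient arrays were scattered. Without EFA-deficient replicate 2 the difference was 3.46 and missed the threshold (adjusted p = 0.056). Aldh3a2, which oxidizes fatty aldehydes, had 11.75, 11.80 and 11.67 in high-fat livers, against 10.50, 9.70 and 9.48 in EFA-deficient livers (log2 difference 1.85 ± 0.27 SE, adjusted p = 0.00017). Fitm1, which partitions triglyceride into droplets, had 10.06, 9.72 and 9.79 in high-fat livers, against 8.43, 7.32 and 6.20 in EFA-deficient livers (log2 difference 2.54 ± 0.51 SE, adjusted p = 0.0015). Ppara itself had 10.14, 10.29 and 10.33 in high-fat livers, against 9.76, 9.10 and 9.16 in EFA-deficient livers and was 1.89-fold higher (log2 difference 0.91 ± 0.18 SE, adjusted p = 0.0014), and the liver transcription factor Creb3l3 rose by a difference of 0.79 ± 0.16 (adjusted p = 0.0014). Without EFA-deficient replicate 2, 7 genes of the list rose.

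Pdk4, the kinase that shuts off pyruvate dehydrogenase and is another PPARα target, went the other way. It had 5.97, 5.51 and 7.23 in high-fat livers, against 9.92, 10.06 and 8.55 in EFA-deficient livers, and was the only member of the list that fell (log2 difference -3.27 ± 0.65 SE, adjusted p = 0.0014). Its high-fat mean lay below the detection level, so the size of the difference is less certain. In AIN-93 livers Pdk4 had 6.39, 7.05 and 7.31, and the difference from AIN-93 was -0.68 for high fat (adjusted p = 0.54) and 2.59 for EFA deficient (adjusted p = 0.035). Cyp4a14 had 6.03, 8.26 and 3.79 in AIN-93 livers, with a mean below the detection level, so the size of its differences from AIN-93 is less certain. For Cyp4a14 the differences from AIN-93 were 6.46 for high fat (adjusted p = 0.0011) and 2.42 for EFA deficient (adjusted p = 0.21). For Aldh3a2 they were 1.87 for high fat (adjusted p = 0.00038) and 0.02 for EFA deficient (adjusted p = 0.98), and for Ppara 0.99 for high fat (adjusted p = 0.0021) and 0.07 for EFA deficient (adjusted p = 0.88). Of these 4 genes, Cyp4a14, Aldh3a2 and Ppara passed against AIN-93 on the high-fat diet and Pdk4 on the EFA-deficient diet.

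Of 15 tested genes of gluconeogenesis and the fasting response, 2 rose (13.3%) and 3 fell (20%), beside 13.6% and 10.8% of all genes. Of the 12 above the detection level in both groups, 2 rose and 1 fell. Igfbp1, a binding protein of insulin-like growth factors that insulin suppresses, had 10.28, 10.27 and 10.49 in high-fat livers, against 13.90, 13.79 and 14.22 in EFA-deficient livers, and was 12.3-fold lower in high-fat livers (log2 difference -3.62 ± 0.76 SE, adjusted p = 0.0023). Against AIN-93 it was -0.43 for high fat (adjusted p = 0.76) and 3.19 for EFA deficient (adjusted p = 0.028). The gluconeogenic enzymes Pck1 and G6pc had 13.21, 14.27 and 13.89 and 11.92, 11.89 and 11.38 in high-fat livers, against 12.68, 12.86 and 14.45 and 12.32, 12.80 and 12.79 in EFA-deficient livers, and neither passed (adjusted p = 0.35 and 0.08). Pck1 passed without EFA-deficient replicate 3 (1.02, adjusted p = 0.013), and G6pc in the fit of the 6 arrays (-0.90, adjusted p = 0.024) and with array weights (-0.89, adjusted p = 0.038). Gpt, which turns alanine into pyruvate, had 10.50, 10.57 and 10.37 in high-fat livers, against 9.38, 9.19 and 9.93 in EFA-deficient livers (log2 difference 0.99 ± 0.18 SE, adjusted p = 0.00067). Of 3 genes of ketone body synthesis and export, Slc16a1, a carrier of lactate and ketone bodies, fell (log2 difference -1.18 ± 0.22 SE, adjusted p = 0.00084).

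Fabp5, a cytosolic fatty acid binding protein of skin and macrophages that is also expressed in liver, had the largest fall among the genes above the detection level in both groups. It had 9.39, 8.59 and 9.63 in high-fat livers, against 13.82, 14.62 and 13.37 in EFA-deficient livers and was 26.6-fold lower in high-fat livers (log2 difference -4.74 ± 0.55 SE, adjusted p = 1.7e-05), and its 2 probes gave -5.04 and -4.43. In AIN-93 livers it had 11.82, 12.44 and 13.40, and the difference from AIN-93 was -3.35 for high fat (adjusted p = 0.001) and 1.38 for EFA deficient (adjusted p = 0.16). Of 16 tested genes of fatty acid uptake and binding, 5 fell (31.2%) and 3 rose (18.8%), beside 10.8% and 13.6% of all genes. Of the 15 above the detection level in both groups, 5 fell and 2 rose. Fabp4, a marker of adipocytes and macrophages, had 7.94, 8.13 and 8.46 in high-fat livers, against 8.81, 9 and 9.22 in EFA-deficient livers (log2 difference -0.84 ± 0.22 SE, adjusted p = 0.0092). It was 1 of 3 adipocyte markers tested of 13 on the array. The other two, Car3 and Lpl, had differences of 0.79 and -0.98 that did not pass, though Car3 did in the fit of the 6 arrays (adjusted p = 0.033). The summed intensity of the 3 was 6700 to 9960 in high-fat livers and 4890 to 7210 in EFA-deficient livers, and these ranges overlap. In such a sum the brightest gene weighs most, so it says little about Fabp4 or about adipocyte RNA. The fatty acid transporter Slc27a2 rose (log2 difference 0.57 ± 0.14 SE, adjusted p = 0.0061), and Acsl4, which activates arachidonate, fell (log2 difference -0.83 ± 0.18 SE, adjusted p = 0.0031).

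Lipid droplet and lipoprotein genes that passed moved in both directions. Among 18 genes of droplet coat and lipolysis, 5 rose (27.8%) and 4 fell (22.2%), beside 13.6% and 10.8% of all genes. Of the 17 above the detection level in both groups, 5 rose and 3 fell. Mgll, the lipase of the last step of triglyceride breakdown, had 10.85, 10.66 and 10.52 in high-fat livers, against 9.90, 8.80 and 8.76 in EFA-deficient livers (log2 difference 1.53 ± 0.25 SE, adjusted p = 0.00038). Ces1g, a carboxylesterase, rose (log2 difference 1.33 ± 0.23 SE, adjusted p = 0.00061), as did Cideb, which acts in loading of very-low-density lipoprotein (log2 difference 0.61 ± 0.13 SE, adjusted p = 0.0018). The droplet coat gene Plin3 fell (log2 difference -1.05 ± 0.19 SE, adjusted p = 7e-04), as did Abhd5, the activator of adipose triglyceride lipase (log2 difference -1.04 ± 0.26 SE, adjusted p = 0.0063). Abhd5 missed the threshold in the fit of the 6 arrays (adjusted p = 0.082). Of 24 tested apolipoprotein and lipoprotein assembly genes, 5 rose (20.8%) and 3 fell (12.5%), beside the same 13.6% and 10.8% of all genes. Of the 23 above the detection level in both groups, 5 rose and 2 fell. The count that rose was 2 without replicate 2 of either diet and 3 without replicate 1 of either diet. Apoa4, an apolipoprotein that rises with lipid load in liver and intestine, had 11.75, 11.41 and 11.51 in high-fat livers, against 14.58, 14.22 and 14.70 in EFA-deficient livers, and was 7.7-fold lower in high-fat livers (log2 difference -2.94 ± 0.37 SE, adjusted p = 5.4e-05). Against AIN-93 Apoa4 was -0.33 for high fat (adjusted p = 0.61) and 2.62 for EFA deficient (adjusted p = 0.0017). Tm6sf2, which acts in lipoprotein lipidation, fell (log2 difference -0.88 ± 0.21 SE, adjusted p = 0.0051), and Lcat, which esterifies plasma cholesterol, rose (log2 difference 0.63 ± 0.15 SE, adjusted p = 0.0044).

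Of 17 tested genes of cholesterol synthesis, 3 rose and 2 fell, which is 17.6% and 11.8%, beside 13.6% and 10.8% of all genes. Of the 16 above the detection level in both groups, 2 rose and 2 fell. Without replicate 2 of either diet, 0 fell. Msmo1, the sterol demethylase, had 12.74, 12.60 and 12.38 in high-fat livers, against 11.19, 11.39 and 11.45 in EFA-deficient livers (log2 difference 1.23 ± 0.21 SE, adjusted p = 0.00047). With no filter on low probes its difference was 0.09 (adjusted p = 1). The mevalonate kinase Mvk had 7.01, 6.59 and 6.39 in high-fat livers, against 5.30, 5.16 and 5.48 in EFA-deficient livers and was at least 1.01-fold higher (adjusted p = 0.0016), with only high-fat replicate 1 above the detection level. Without that array no fold can be given. Of 13 genes of SREBP2 control and the LDL receptor pathway, 3 fell (23.1%) and 0 rose. Rdh11, a retinol dehydrogenase of this list, had 9.38, 9.11 and 9.34 in high-fat livers, against 10.09, 11.02 and 10.26 in EFA-deficient livers (log2 difference -1.18 ± 0.30 SE, adjusted p = 0.0073). Rdh11 missed the threshold without EFA-deficient replicate 2 (-0.89, adjusted p = 0.058). In this list 0 genes fell without EFA-deficient replicate 2 and 1 without high-fat replicate 2. In bile acid synthesis and transport, 5 of 24 rose (20.8%) and 1 fell (4.17%), and 3 rose without high-fat replicate 1. Cyp7a1, the first enzyme of bile acid synthesis, had 9.01, 9.87 and 8.29 in high-fat livers, against 7.73, 5.92 and 7.57 in EFA-deficient livers, groups that did not overlap and a difference of 1.98 ± 0.82 that did not pass (adjusted p = 0.081). It passed with the replicate block (adjusted p = 0.044), with array weights (adjusted p = 0.047) and in the fit of the 6 arrays (adjusted p = 0.049). Of 12 LXR targets and sterol efflux genes 3 rose (25%), against 1 without high-fat replicate 1 and 5 without EFA-deficient replicate 3. Among the 3 was Abcb4, the phospholipid exporter of bile, with 11.41, 11.43 and 11.49 in high-fat livers, against 10.98, 10.31 and 10.18 in EFA-deficient livers (log2 difference 0.95 ± 0.15 SE, adjusted p = 0.00038).

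Several genes of xenobiotic metabolism were higher in high-fat livers. Of 25 tested targets of the receptors CAR and PXR, 11 rose (44%) and 1 fell (4%), beside 13.6% and 10.8% of all genes. The median difference was 0.66, and the counts were the same for the 24 above the detection level in both groups. Nr1i3, which encodes CAR, had 9.09, 9.26 and 9.15 in high-fat livers, against 7.38, 6.63 and 7.23 in EFA-deficient livers and was 4.24-fold higher (log2 difference 2.08 ± 0.20 SE, adjusted p = 2.3e-06), with the groups far apart. Against AIN-93 it was 1.32 for high fat (adjusted p = 0.00051) and -0.76 for EFA deficient (adjusted p = 0.042). Abcc3, which exports conjugates to blood, had 10.65, 10.64 and 10.82 in high-fat livers, against 8.996, 8.76 and 8.44 in EFA-deficient livers (log2 difference 1.97 ± 0.30 SE, adjusted p = 0.00024). The cytochrome P450 genes Cyp2c37, Cyp2c50, Cyp2c54 and Cyp3a25 were 1.8-fold, 1.57-fold, 2.01-fold and 1.77-fold higher, with adjusted p = 0.0063, 0.00078, 0.0039 and 0.00065. These Cyp2c genes are close paralogs whose probes may cross-hybridize. The other P450 genes tested in this list did not pass. They were Cyp2c29 (log2 difference 0.09, adjusted p = 0.68), Cyp2c38 (0.82, adjusted p = 0.22), Cyp3a11 (0.61, adjusted p = 0.056) and Cyp3a13 (0.34, adjusted p = 0.12). Cyp2b9, Cyp2b10 and Cyp2b13 did not reach the detection level in either group.

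Of 35 tested genes of glutathione metabolism and Nrf2 targets, 11 rose (31.4%) and 1 fell (2.86%), beside 13.6% and 10.8% of all genes. The median difference was 0.23. Of the 33 above the detection level in both groups, 9 rose and 1 fell. Ephx1, the microsomal epoxide hydrolase, had 11.75, 11.94 and 11.68 in high-fat livers, against 10.61, 10.38 and 10.44 in EFA-deficient livers (log2 difference 1.31 ± 0.19 SE, adjusted p = 0.00016). Gsta4, which conjugates lipid peroxidation products such as hydroxynonenal, had 9.28, 9.27 and 9.99 in high-fat livers, against 7.52, 7.68 and 8.97 in EFA-deficient livers (log2 difference 1.46 ± 0.27 SE, adjusted p = 0.00082), and EFA-deficient replicate 3 lay closest to the high-fat arrays. Gstk1, a glutathione transferase of mitochondria and peroxisomes, rose (log2 difference 0.89 ± 0.15 SE, adjusted p = 0.00055), as did the peroxidase Gpx1 (log2 difference 0.36 ± 0.08 SE, adjusted p = 0.0035). Gstm3 fell (-1.13, adjusted p = 0.04). Among the 23 that did not pass were Gclc (-0.09, adjusted p = 0.74), Txnrd1 (-0.15, adjusted p = 0.49), Srxn1 (0.03, adjusted p = 0.95) and Nfe2l2, which encodes Nrf2 (-0.45, adjusted p = 0.11). Nqo1 and Hmox1 did not reach the detection level in either group. Without EFA-deficient replicate 1, 7 genes of this list rose. Between 9 and 12 CAR and PXR targets rose with 1 array left out.

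Circadian clock genes moved in both directions. In liver, Arntl pairs with Clock or Npas2 to drive E-box genes such as the PAR bZIP factors Dbp, Tef and Hlf, which oppose the repressor Nfil3. Of 15 tested clock genes, 6 rose (40%) and 5 fell (33.3%), beside 13.6% and 10.8% of all genes. Only 7 of the 15 were above the detection level in both groups, and of these 1 rose and 3 fell. Dbp had 8.44, 9.67 and 8.90 in high-fat livers, against 5.96, 3.79 and 3.90 in EFA-deficient livers (log2 difference 4.45 ± 1.07 SE, adjusted p = 0.0051), so all EFA-deficient values lay below the detection level while all high-fat values lay above it, and the size of the difference is less certain. Tef had 8.37, 9.08 and 8.45 in high-fat livers, against 7.08, 6.26 and 6.43 in EFA-deficient livers (log2 difference 2.04 ± 0.39 SE, adjusted p = 0.001), and with no filter its difference was 0.82 and did not pass (adjusted p = 0.057). The EFA-deficient mean of Tef also lay below the detection level. Usp2, a ubiquitin protease with a strong daily rhythm, had 5.62, 8.64 and 6.64 in high-fat livers, against 3.17, 3.22 and 3.11 in EFA-deficient livers and was at least 1.25-fold higher (adjusted p = 0.00019), with high-fat replicate 2 far above the other two. Without that array Usp2 still passed (adjusted p = 0.0013), but no fold can be given, and without high-fat replicate 1 it was at least 1.997-fold higher. Without EFA-deficient replicate 1 the difference of Dbp was 5.16.

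Arntl and Npas2 were lower in high-fat livers, while Clock had a difference of -0.37 that did not pass (adjusted p = 0.26). Arntl had 6.23, 4.25 and 6.49 in high-fat livers, against 7.83, 8.25 and 8.32 in EFA-deficient livers and was at least 2.81-fold lower (adjusted p = 0.00084). Npas2, its partner in the liver, had 3.97, 3.50 and 3.84 in high-fat livers, against 6.72, 7.73 and 7.25 in EFA-deficient livers and was lower by at least 1.51-fold (adjusted p = 0.0015). Without high-fat replicate 2, Arntl still passed (adjusted p = 0.0058). Cry1, a repressor that peaks late in the cycle, had 7.39, 6.68 and 7.84 in high-fat livers, against 8.91, 9.15 and 9.65 in EFA-deficient livers (log2 difference -1.93 ± 0.34 SE, adjusted p = 0.00065), and Rora, an activator of Arntl, had 7.86, 8.15 and 7.99 in high-fat livers, against 8.63, 9.01 and 8.93 in EFA-deficient livers (log2 difference -0.85 ± 0.17 SE, adjusted p = 0.0015). Nfil3 had 7.71, 6.86 and 7.82 in high-fat livers, against 8.76, 9.41 and 9.97 in EFA-deficient livers and passed (log2 difference -1.92 ± 0.56 SE, adjusted p = 0.018), but not without EFA-deficient replicate 2 (-1.90, adjusted p = 0.053), EFA-deficient replicate 3 (-1.63, adjusted p = 0.064) or high-fat replicate 2 (-1.62, adjusted p = 0.086), nor with no filter (adjusted p = 0.071). The PAR bZIP gene Hlf (log2 difference 0.88 ± 0.29 SE, adjusted p = 0.033) and the repressor gene Nr1d2 (log2 difference 1.43 ± 0.49 SE, adjusted p = 0.039) rose but lost the call more often. Hlf lost it without EFA-deficient replicate 2 or 3 (adjusted p = 0.1 and 0.17) and without high-fat replicate 2 or 3 (adjusted p = 0.11 and 0.083). Nr1d2 lost it without each array but EFA-deficient replicate 1 (adjusted p = 0.077 to 0.16). With no filter and in the fit of the 6 arrays, Hlf (adjusted p = 0.097 and 0.1) and Nr1d2 (0.71, adjusted p = 0.13, and adjusted p = 0.056) missed the threshold as well. Without replicate 2 of either diet, 3 clock genes rose, and with any 1 array left out 4 or 5 fell.

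**Figure D5:**
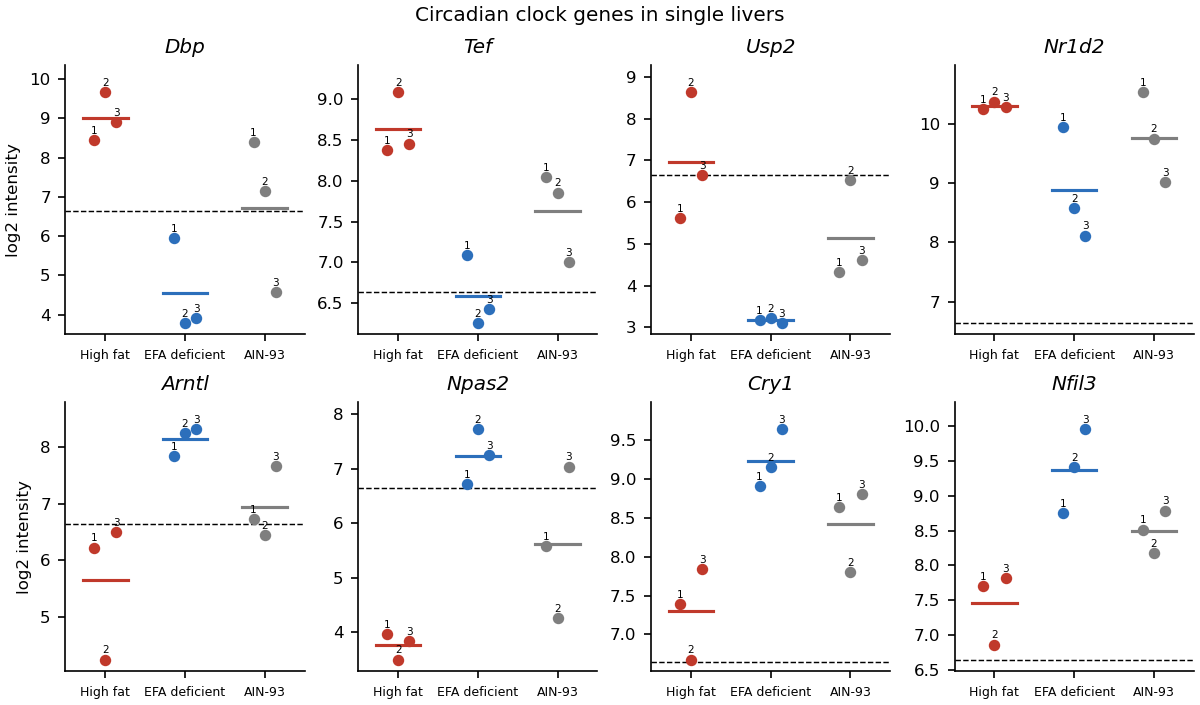
Log2 intensity of 8 clock genes in each liver on the high-fat (red), EFA-deficient (blue) and AIN-93 (grey) diets, with points numbered by replicate, bars at group means and a dashed line at the detection level. Dbp, Tef, Usp2 and Nr1d2 lie higher and Arntl, Npas2, Cry1 and Nfil3 lower on high fat than on EFA deficient, with AIN-93 livers spread over much of the range.

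AIN-93 livers were spread over much of this range, with 8.40, 7.15 and 4.57 for Dbp and 6.73, 6.45 and 7.66 for Arntl. The differences from AIN-93 were 2.30 for high fat (adjusted p = 0.17) and -2.16 for EFA deficient (adjusted p = 0.27) for Dbp, and for Arntl the adjusted p was 0.074 for high fat and 0.15 for EFA deficient, so neither diet passed against the control for these genes. For Cry1 they were -1.12 for high fat (adjusted p = 0.043) and 0.82 for EFA deficient (adjusted p = 0.19). Clock transcripts swing steeply with the hour. The authors give a short morning window for all mice, but not the hour at which each mouse was killed. The part of the hour in these differences, and in those of any other gene with a daily rhythm, was therefore not tested.

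Promoter sequences from RefSeq (GRCm38.p6, from 250 bases before to 50 bases after each annotated start) were searched on both strands for the E-box CACGTG, which CLOCK with ARNTL and also ChREBP and SREBP-1 can bind. It was found for 1 of 6 clock genes that rose, 1 of 5 that fell and 1 of 11 lipogenic genes with a promoter in the table that fell. These are Tef, which rose, and Cry1 and Mlxipl, which both fell. They are shown with the E-box in capitals because they carry the same 6 letters and did not all move in the same direction. Tef has 2 starts in the table, both on the plus strand, at chr15:81802423-81802722 and chr15:81811164-81811463. Cry1 lies on the minus strand at chr10:85185005-85185304 and Mlxipl on the plus strand at chr5:135089640-135089939.
Tef, first start: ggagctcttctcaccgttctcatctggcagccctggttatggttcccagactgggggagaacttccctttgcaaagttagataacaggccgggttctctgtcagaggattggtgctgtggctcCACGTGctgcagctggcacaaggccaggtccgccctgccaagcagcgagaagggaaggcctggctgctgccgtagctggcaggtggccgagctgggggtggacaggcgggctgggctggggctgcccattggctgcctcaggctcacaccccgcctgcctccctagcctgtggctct
Tef, other start: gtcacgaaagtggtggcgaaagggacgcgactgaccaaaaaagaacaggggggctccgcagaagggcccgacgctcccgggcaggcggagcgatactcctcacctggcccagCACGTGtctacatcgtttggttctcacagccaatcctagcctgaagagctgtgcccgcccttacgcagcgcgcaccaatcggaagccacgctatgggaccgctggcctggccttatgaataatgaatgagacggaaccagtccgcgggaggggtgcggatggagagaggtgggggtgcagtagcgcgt
Cry1: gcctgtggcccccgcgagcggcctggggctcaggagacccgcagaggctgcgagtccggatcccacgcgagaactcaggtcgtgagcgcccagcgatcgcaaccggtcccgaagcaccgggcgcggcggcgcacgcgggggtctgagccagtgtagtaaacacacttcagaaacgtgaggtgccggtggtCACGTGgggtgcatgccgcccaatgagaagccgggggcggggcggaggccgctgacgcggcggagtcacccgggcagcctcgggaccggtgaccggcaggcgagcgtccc
Mlxipl: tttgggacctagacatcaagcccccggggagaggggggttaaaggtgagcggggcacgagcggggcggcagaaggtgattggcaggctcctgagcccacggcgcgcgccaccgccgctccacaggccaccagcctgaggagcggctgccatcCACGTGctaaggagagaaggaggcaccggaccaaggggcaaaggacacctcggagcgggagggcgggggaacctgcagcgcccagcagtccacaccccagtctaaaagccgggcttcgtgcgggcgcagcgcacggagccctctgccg
Counted from the annotated start, the first base of the E-box lies at -127 and -138 in the Tef windows, at -60 in Cry1 and at -98 in Mlxipl. Over all genes with a promoter in the table, it was present for 11.2% of 695 that rose, 10.4% of 541 that fell, 13.3% of 3758 that did not pass and 8.09% of all 27025. The CCAAT box was present for 46.6%, 47.3%, 42.0% and 41.1%. A direct repeat bound by nuclear receptors (AGGTCANAGGTCA) was present for 0 genes that rose, 0 that fell and 0.0481% of all, so exact copies were rare.

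In amino acid catabolism 14 of 52 tested genes rose and 2 fell, which is 26.9% and 3.85%, beside 13.6% and 10.8% of all genes, with a median difference of 0.26. Sardh, which demethylates sarcosine, had 11.43, 11.44 and 11.45 in high-fat livers, against 10.35, 10.18 and 10.82 in EFA-deficient livers (log2 difference 0.99 ± 0.15 SE, adjusted p = 0.00024). Prodh2, a hydroxyproline dehydrogenase, rose (log2 difference 0.62 ± 0.14 SE, adjusted p = 0.0031), and Kynu of the kynurenine pathway fell (log2 difference -0.65 ± 0.12 SE, adjusted p = 0.00084). Without EFA-deficient replicate 3, 23 genes of this list rose, against 9 without EFA-deficient replicate 1 and 8 without EFA-deficient replicate 2. Atf4, a transcription factor of the amino acid response, had 9.13, 8.67 and 8.93 in high-fat livers, against 9.90, 10.28 and 9.96 in EFA-deficient livers (log2 difference -1.13 ± 0.17 SE, adjusted p = 0.00024), and the one-carbon enzyme Shmt2 rose (log2 difference 0.58 ± 0.11 SE, adjusted p = 0.0012).

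Respiratory chain genes differed little. Of 69 tested, 8 rose and 5 fell, and all differences lay between -0.42 and 0.43. With 1 array left out, between 1 and 7 rose and between 0 and 6 fell, with 1 to 3 that rose for each array but EFA-deficient replicate 3, and 0 passed in either direction in a fit of the 6 arrays alone. Of 40 complement and coagulation genes 3 rose and 1 fell, of 26 acute phase genes 1 rose, and of 30 chaperones of the endoplasmic reticulum and heat shock 1 rose and 3 fell. The complement count was 1 higher without replicate 1 or 2 of either diet, and the chaperone count was 0 lower without high-fat replicate 2 and 1 lower without EFA-deficient replicate 2. These shares lie at or below those of all genes. Of the genes higher in female liver 2 were tested, of which Cyp4a14 rose and Cyp17a1 fell. Cyp17a1, a steroid hydroxylase, had 6.47, 6.53 and 5.92 in high-fat livers, against 8.22, 7.15 and 8.91 in EFA-deficient livers and was at least 2.73-fold lower in high-fat livers (adjusted p = 0.0069).

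Outside the lists, the 15 genes with the largest rise and the 15 with the largest fall among those with no overlap of arrays are of mixed function. Tpm2, a tropomyosin, had 8.26, 7.83 and 8.38 in high-fat livers, against 6.04, 6.06 and 5.31 in EFA-deficient livers (log2 difference 2.36 ± 0.32 SE, adjusted p = 0.00011), and the potassium channel gene Kcnk5 had 7.71, 9.17 and 8.01 in high-fat livers, against 6.15, 6.20 and 5.70 in EFA-deficient livers and was at least 3.15-fold higher (adjusted p = 0.00047). Ppargc1b, a coactivator of mitochondrial and lipogenic genes, had 6.35, 6.85 and 6.73 in high-fat livers, against 5.28, 5.10 and 4.72 in EFA-deficient livers and rose (adjusted p = 0.00024). Its high-fat mean lay at the detection level, so no fold is given. Against AIN-93, with 6.94, 6.50 and 6.54, the adjusted p was 0.98 for high fat and 0.0025 for EFA deficient. For Limd2, which rose (log2 difference 1.61 ± 0.18 SE, adjusted p = 1.3e-05), the differences from AIN-93 were 0.20 for high fat (adjusted p = 0.52) and -1.41 for EFA deficient (adjusted p = 0.00068), and for the receptor gene Gpr146, 2.83-fold higher (adjusted p = 0.00038), they were -0.08 for high fat (adjusted p = 0.86) and -1.58 for EFA deficient (adjusted p = 0.0025). The progestin receptor family gene Paqr7, Rnf152, Rab43, Aox3 and 1810058I24Rik rose by differences between 1.54 and 2.27, Ildr2 was at least 2.19-fold and Clcn2 at least 1.2-fold higher. With no filter Rab43 was at 0.50 (adjusted p = 0.051). Without EFA-deficient replicate 1 Paqr7 was at 2.91. The EFA-deficient means of Tpm2, Gpr146, Paqr7 and Inhbe lay below the detection level, so the size of their differences is less certain. Inhbe, Mcm10 and Lgals1 rose by 1.73, 1.69 and 1.57 but missed the threshold without some arrays. For Inhbe these were EFA-deficient replicate 2 (1.502, adjusted p = 0.061) and high-fat replicate 3 (1.499, adjusted p = 0.052), for Mcm10 EFA-deficient replicate 2 (1.10, adjusted p = 0.089), and for Lgals1 every array but EFA-deficient replicate 1 (adjusted p = 0.066 to 0.12). With no filter all 3 missed it (adjusted p = 0.051 for Inhbe, 0.072 for Mcm10 with a difference of 0.64, and 0.12 for Lgals1), and Mcm10 did so in the fit of the 6 arrays (adjusted p = 0.061).

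Among the genes that fell, Tff3, a trefoil peptide of mucosal surfaces, had 4.67, 4.54 and 4.41 in high-fat livers, against 7.13, 8.15 and 9.84 in EFA-deficient livers and was at least 3.32-fold lower (adjusted p = 0.0039). The autophagy gene family member Atg16l2 had 4.50, 3.96 and 4.15 in high-fat livers, against 7.35, 8.65 and 6.74 in EFA-deficient livers and was at least 1.91-fold lower (adjusted p = 6.5e-06). Follistatin (Fst), a liver hormone that binds activins, had 5.21, 4.01 and 5.04 in high-fat livers, against 7.13, 8.44 and 7.57 in EFA-deficient livers and was at least 2.09-fold lower (adjusted p = 0.00042). The tubulin gene Tubb2a had 11.81, 11.32 and 11.59 in high-fat livers, against 13.45, 13.76 and 13.50 in EFA-deficient livers (log2 difference -2.001 ± 0.27 SE, adjusted p = 8.5e-05), the only one of these 4 above the detection level in both groups. Grk5, 1810008I18Rik, Tnfaip2 and Abtb2 fell by differences between -2.56 and -1.80, and Acpp, Pdzk1ip1, Mmd2, Reck, Tspyl4 and Fkbp14 were lower by at least 1.48-fold to at least 3.22-fold. The high-fat mean of Grk5 lay below the detection level, so the size of its difference is less certain. Neat1, a nuclear noncoding RNA, fell by a difference of -2.47, but missed the threshold without high-fat replicate 2 (-2.01, adjusted p = 0.078) and with no filter (-1.23, adjusted p = 0.1). With no filter Mmd2 missed it too (adjusted p = 0.061), as did Acpp in the fit of the 6 arrays (adjusted p = 0.058). Without EFA-deficient replicate 3 the minimum fold was 1.99 for Tff3, 1.75 for Mmd2 and 5.07 for Acpp. Without EFA-deficient replicate 2 it was 1.31 for Acpp, and without EFA-deficient replicate 1 it was 5.11 for Tff3, and these genes still passed.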

How the data were processed

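Single-color arrays measured liver RNA of 27 mice (9 diets, 3 mice per diet), and the high-fat, EFA-deficient and AIN-93 groups were used here. The deposited values are log2 intensities, which the authors made with GCRMA (background correction, quantile normalization and probe set summary), and they were used as deposited. A gene's value was the mean of its probes that list 1 symbol and whose mean exceeded log2(100), which is 6.64, in the high-fat or EFA-deficient group. Differences were fitted with limma 3.58.1 in R 4.3.3 over all 27 arrays, with Benjamini-Hochberg adjustment over all 6057 genes. Each diet holds 3 arrays, which limits the precision, and p-values set a difference against a spread between mice estimated over all 9 diets.

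Genes are named where they belong to one of 39 lists (30 pathways, 9 cell types) or are among the 15 largest changes in each direction outside them. The members and lists were chosen with earlier results of these data known. Alternatives were other filters, fits, scalings and probe rules, a replicate block, and each array left out. The fit was tested on simulated data. Promoters were read from RefSeq (GRCm38.p6).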

Additional observations from a re-analysis of the deposited data

How the results depend on the processing

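Of 139 named genes followed through the alternatives, 106 kept their call under all 17 that gave a value, and none reversed. Cyp2c29, Cyp2c38, Cyp3a11, Cyp3a13, Eci1, Gclc, Gstm3, Nfe2l2, Srxn1 and Txnrd1 were not followed. Against 1479 genes and 2102 probes called, a fit of the 6 high-fat and EFA-deficient arrays alone called 1008 genes and 1387 probes, with 8 lipogenic genes lower and 11 peroxisomal genes higher. That is the fewest of the alternatives that kept all arrays of both diets for probes, while the fewest genes, 1007, were called with no filter on low values. With 1 array left out, 860 to 1489 genes and 1152 to 2186 probes were called. The lowest counts came without EFA-deficient replicate 2, and without high-fat replicate 2 there were 907 genes and 1223 probes. Array weights called 1918 genes and 2887 probes. The replicate numbers did not pair the samples (correlations of deviations -0.20, -0.04 and -0.15), and a replicate block called 1484 genes and 2154 probes and changed the call of 1 of 139 named genes, Cyp7a1. With 3 arrays per diet, p-values rest on a spread shared by 9 diets, and genes near the detection level have a less certain fold.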
